A study of Caenorhabditis elegans with 119 samples.

Results

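The libraries described here were 8 of the series, which holds 111 others, chosen by their labels alone. They were the 4 libraries of Caenorhabditis elegans strain PX991 at day 12 of adulthood and the 4 libraries of the same strain at day 4, all kept on the solvent DMSO without sulforaphane (SFN). PX991 carries daf-16(fx107), and every worm of both ages carried it. Worms were grown at 20 °C on Escherichia coli OP50-1. On day 1 of adulthood they were moved to plates with 0.25% DMSO and 51 µM FUdR, a drug that blocks DNA synthesis and so keeps progeny from developing. Each library held RNA of about 50 whole worms. Replicates of 1 age were biological replicates raised and collected together, so age and day of collection cannot be told apart. Age effects were also set against PX991 on SFN (8 libraries), the wild type N2 in DMSO (24 libraries of 3 trials) and EU1, a skn-1(zu67) strain, in DMSO (12 libraries), always at the same pair of ages. All p-values measure the spread between these libraries. A log2 change is day 12 minus day 4 and is given with its standard error (SE).

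DAF-16 is the FOXO transcription factor at the end of the insulin signalling pathway. When the insulin receptor DAF-2 is quiet, DAF-16 enters the nucleus, raises a set of stress and metabolic genes known as class I and lowers another set known as class II. Loss of daf-16 shortens life in C. elegans. In aging adults on FUdR the gut, muscle and cuticle remain, while the germline and the flow of yolk into oocytes change. Whole-worm RNA mixes all these tissues, so fewer cells of a type and less RNA per cell cannot be told apart.

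Transcripts of daf-16 remained present in every library. PX991 held 126, 128, 157 and 130 CPM at day 12 and 155, 175, 151 and 175 CPM at day 4. CPM, the unit of level used throughout, is the count of a gene scaled to the total of its library, with totals adjusted by TMM factors, and not per length. The ages overlapped, and the log2 change of -0.28 ± 0.16 missed the threshold (edgeR adjusted p = 0.165). A change of the same size passed in the fit of only the 8 DMSO libraries (adjusted p = 0.0262) and in that without the shallowest SFN library (adjusted p = 0.0301). The labels do not describe the lesion of fx107, so these counts do not check the genotype. For skn-1, which is not mutated in PX991, the change was -0.26 ± 0.14, which likewise missed the threshold in the fit of all PX991 libraries and passed in both other fits (adjusted p = 0.0372 and 0.0323).

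Libraries held 982711 to 2240591 counts at day 12 and 1874214 to 4725237 at day 4. Thinned to a common depth of 982711 counts, day 12 libraries showed 14322 ± 629 genes and day 4 libraries 12771 ± 68.7 genes (SD, n = 4 each, exact permutation p = 0.0286, two-sided, the smallest that 4 against 4 allows). Without any one day 4 library that p was 0.0571, with differences of 1530 to 1575 genes. The protein genes of mitochondrial DNA took 3.37 ± 0.451% of counts at day 12 and 1.82 ± 0.181% at day 4 (exact permutation p = 0.0286). Ribosomal RNA took 3.52 ± 1.9% at day 12 and 6.87 ± 5.7% at day 4, where replicate 4 held 15.4% (exact permutation p = 0.371). The 10 most abundant genes of each library took 7.69 ± 1.78% of counts at day 12 and 14.4 ± 5.33% at day 4 (exact permutation p = 0.0286). Their share was 5.61 to 9.95% in the day 12 libraries and 10.9 to 22.3% in the day 4 libraries. Its part in the number of genes seen was not tested. Spread between replicates was wider at day 12, with a coefficient of biological variation of 17.1% against 8.61% at day 4. The part of RNA composition in single genes was not tested, while counts thinned to the smallest library of the fit still gave 1863 called genes, of which 1785 were also called at full depth. Markers of gut, muscle, neurons, epidermis and germline were all detected, while only 2 of 63 sperm genes passed the filter on low counts.

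Large losses of gut, yolk, defence and cuticle transcripts and gains of pals and mitochondrial transcripts marked day 12. Of 10073 genes tested, 3637 (36.1%) passed an adjusted p of 0.05, with 1825 higher (18.1%) and 1812 lower (18%) at day 12. In what follows, rose and fell are used only of such genes. The counts in each direction were alike, but the large changes were mostly losses, since 527 genes fell by at least 2 on the log2 scale and 312 rose by as much. At a size of 5 or more, 84 fell and 14 rose, by fitted values that include genes with 0 reads at an age. Over all genes tested the median change was 0.02, and all 4 day 12 libraries lay above all 4 day 4 libraries for 19.2% of genes and below them for 20.5%.

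**Figure D1:**
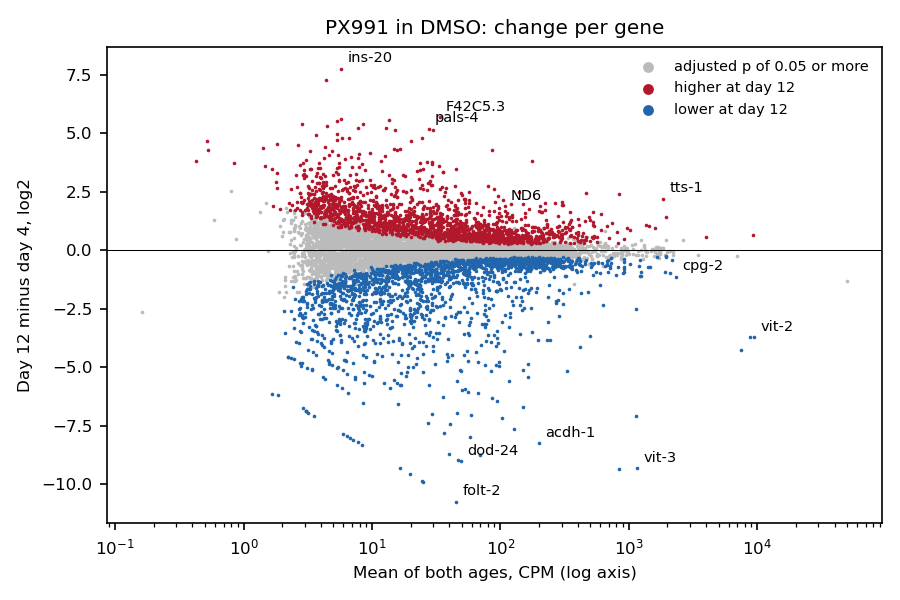
Each point is 1 of 10073 genes, with the mean CPM of both ages on a log axis and the day 12 minus day 4 change on the log2 scale. Red genes were higher at day 12, blue genes lower, and grey genes missed the adjusted p of 0.05. The losses reach further (vit-3) than the gains among genes with many reads. For genes with 0 reads in all libraries of an age, such as folt-2 and ins-20, the fitted change is drawn, and its size is not measured.

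Yolk transcripts fell by large amounts. Vitellogenins are the yolk proteins that the adult gut makes and secretes for uptake by oocytes. All 6 genes fell, where 18% of all genes tested did, and their median change was -5.69. Together they held between 2659 and 3943 CPM in the day 12 libraries and between 49088 and 58991 CPM in the day 4 libraries. vit-2 (chromosome X, 5101042 to 5106169 in WBcel235) held 1419, 1076, 1463 and 1359 CPM at day 12, against 16764, 19047, 15996 and 18352 CPM at day 4. The ages were far apart, with a log2 change of -3.72 ± 0.34 (edgeR adjusted p = 6.76e-07). vit-6 on chromosome IV, the only vitellogenin not on X, changed by -3.70 ± 0.31. The estimates for vit-1, vit-3 and vit-4 were larger. vit-3 held 4.19, 2.31, 5.34 and 3.32 CPM at day 12, against 2368, 2659, 1924 and 2348 CPM at day 4, a change of -9.32 ± 0.38. vit-4 held 1.68, 1.15, 9.79 and 0 CPM at day 12, against 1680, 1781, 1442 and 1817 CPM at day 4. Reads may be shared between near-identical copies, so the split between vit-3 and vit-4 is uncertain. vit-1 changed by -7.11 ± 0.40 and vit-5 by -4.28 ± 0.32.

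**Figure D2:**
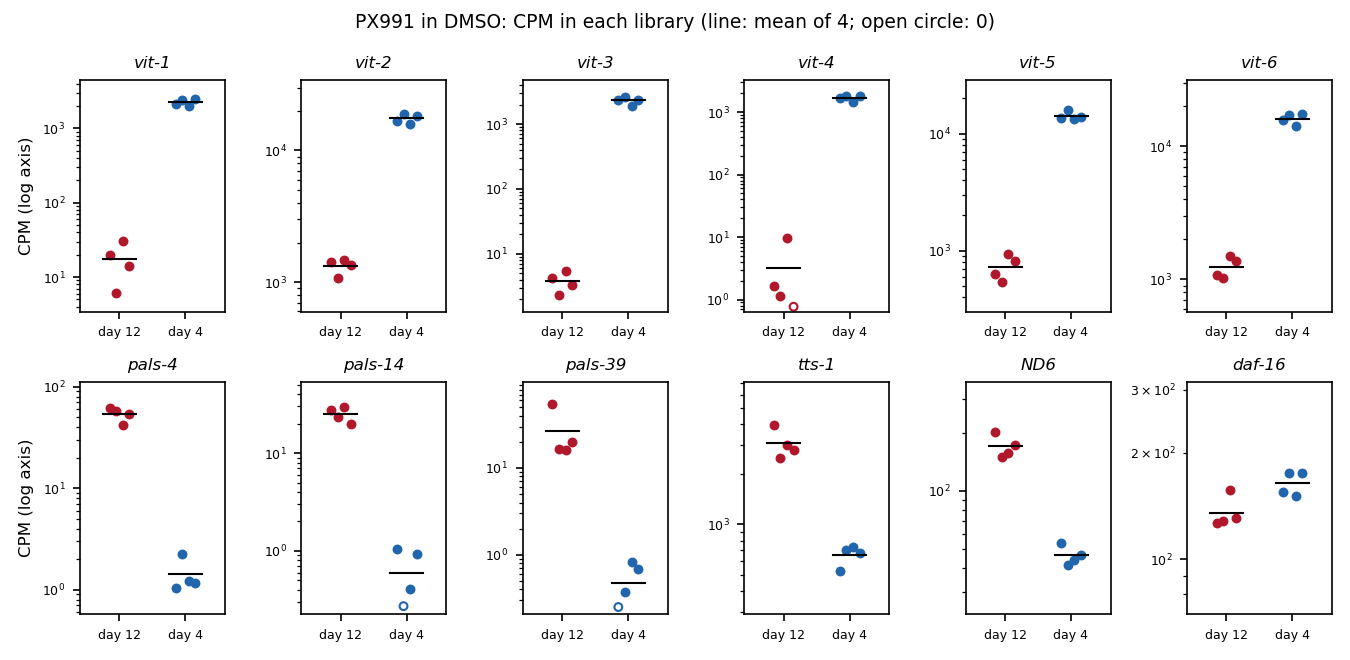
CPM on log axes for 12 genes in the 4 day 12 libraries (left, red) and the 4 day 4 libraries (right, blue) of PX991 in DMSO, with a line at the mean and open circles for 0. The 6 vitellogenins lie lower at day 12, the pals genes, tts-1 and ND6 lie higher, and daf-16 overlaps between the ages.

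The yolk genes fell in N2 too, and less in the mean of its 3 trials for 5 of them. In a joint fit the PX991 change minus the N2 change was past the threshold for 5 of 6 vitellogenins, all lower, where 9.69% of all genes were lower and 5.37% higher. In N2 itself 61.1% of genes passed by age, 33.7% higher and 27.4% lower. For vit-5 the change was -4.33 in PX991 and -2.25 in N2, a difference of -2.08 ± 0.21. The 3 N2 trials gave -2.09, -1.60 and -3.07 for this gene, all smaller than in PX991. For vit-2 the difference was -0.78 ± 0.16, and it was 0.085 when N2 trial 3 alone stood for N2. With that trial alone vit-1 (-1.1), vit-4 (-1.08) and vit-6 (-0.35) lost their calls as well, so that of the 5 vitellogenins only vit-5 still passed. The vit-4 difference of -1.60 ± 0.49 lost its call without day 12 replicate 1, 2 or 4, at -1.38, -1.23 and -1.32, and it was -0.21 with thinned counts. Against EU1, where 3.57% of all genes differed higher and 3.63% lower, edgeR called 0 of 6 vitellogenins, with 0 at an unadjusted p under 0.05. For vit-3 that difference was -0.52 ± 0.66.

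Most transcripts that mark the gut fell alongside. Of 23 tested genes that mark the intestine, 17 fell and 1 rose, and of 20 tested gut proteases 14 fell and 0 rose. asp-13, an aspartyl protease, held 0.419, 0.384, 0.89 and 0 CPM at day 12, against 102, 139, 102 and 123 CPM at day 4. Only 3 reads remained over the day 12 group, so the level at day 12 was 0.00345 of that at day 4 (95% exact interval 0.000711 to 0.0101, counting error only). asp-2, of the same family, held 2.22 ± 1.56 CPM at day 12 and 169 ± 26.5 CPM at day 4. The cathepsin L gene cpl-1 held 220, 156, 242 and 220 CPM at day 12, against 1037, 1185, 935 and 1068 CPM at day 4, and changed by -2.34 ± 0.17. vha-6, a subunit of the proton pump on the gut lumen, changed by -3.28 ± 0.25, and the peptide transporter pept-1 by -2.63 ± 0.27. Summed over the intestinal markers, levels were 828 to 1157 CPM at day 12 and 2882 to 3428 CPM at day 4. In the joint fit the age effect of 10 of 22 proteases was lower in PX991 than in N2, where 9.69% of all genes were. For cpl-1 that difference was -1.14 ± 0.17. Against EU1, 0 of 22 proteases were lower in PX991 and 2 higher, where 3.63% and 3.57% of all genes were. The medians in that fit were -2.12 in PX991 and -3.16 in EU1.

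Some transcripts had no read left at day 12. Of the genes tested, 19 had 0 reads in all 4 day 12 libraries and 5 had 0 reads in all 4 day 4 libraries. folt-2, of the folate transporter family, had 0 reads in all 4 day 12 libraries and 91.4, 115, 65.1 and 90 CPM at day 4. With a floor of 3 counts summed over the 4 day 12 libraries, its log2 change was -7.79 or lower. The same bound was -7.02 for gfi-1, -6.82 for F55G11.4 and -6.57 for T05E12.6, which had no read at day 12 either. acdh-1, the acyl-CoA dehydrogenase of the propionate shunt, held 0, 1.54, 4.45 and 0 CPM at day 12, against 414, 407, 354 and 409 CPM at day 4. C32H11.4 and Y16B4A.2 were left with 1 read each over the 4 day 12 libraries, against 1069 and 923 reads at day 4.

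Defence genes made up another large block of losses. C-type lectins are secreted sugar-binding proteins often induced by bacteria. Of 240 members 54 passed the filter on low counts, and of these 40 fell and 7 rose. Lysozymes and saposin-like proteins attack bacterial walls and membranes. Of 47 members 29 passed the filter, and of these 17 fell and 4 rose. Among all genes tested 18% fell and 18.1% rose. Members near 0 reads at day 12, such as clec-218, can pass that filter only through libraries where they are high. The shares therefore do not describe these families as a whole. clec-218 held 0, 0.384, 0.89 and 0.831 CPM at day 12, against 69.6, 85, 82.3 and 84.5 CPM at day 4. irg-4, an infection response gene, held 0.419, 0.384, 0 and 0 CPM at day 12, against 132, 173, 140 and 113 CPM at day 4. With 2 reads left over the day 12 group, its ratio of day 12 to day 4 was 0.00201 (95% exact interval 0.000243 to 0.00726). The lysozyme lys-1 held 22.6, 10.4, 28.5 and 13.3 CPM at day 12, against 626, 770, 576 and 590 CPM at day 4, and changed by -5.14 ± 0.31. Among the other immune effectors the picture was mixed, with 11 of 36 lower and 8 higher. C17H12.8 changed by -6.04 ± 0.33, sysm-1 by -6.45 ± 0.44 and irg-3 by -5.20 ± 0.44.

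Known targets of DAF-16 moved with age in the daf-16 mutant. Class II targets, which DAF-16 represses in wild-type worms, fell in 7 of 10 tested members and rose in 0, with a median of -2.93. Of these, vit-2 and vit-5 are also yolk genes. dod-24 held 0, 0, 0.89 and 0 CPM at day 12, against 103, 106, 96.6 and 91.9 CPM at day 4. dod-22 had 0 reads at day 12 and 23.4, 40.8, 40.9 and 28.2 CPM at day 4, a change of -6.33 or lower. dod-17 was left with 2 reads against 98. nuc-1, a nuclease that digests the DNA of dead cells and bacteria, changed by -1.74 ± 0.17 and dod-23 by -2.15 ± 0.24. dod-19, ins-7 and gcy-18 missed the threshold at -0.42 ± 0.17, -0.11 ± 0.38 and -0.50 ± 0.50. dod-19 passed without day 12 replicate 4 (-0.65), its highest library of that age, and also with limma-voom, without a filter, with a replicate block and in the fit of only the 8 DMSO libraries. In the joint fit 5 of 13 class II targets differed lower from N2 and 0 higher, where 9.69% and 5.37% of all genes did. The medians were -1.79 in PX991 and -0.29 in N2. Against EU1 edgeR called 0 of 10, with 3 at an unadjusted p under 0.05 and medians of -2.97 in PX991 and -2.99 in EU1.

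Class I targets, which DAF-16 activates, split into both directions, with 11 of 20 lower and 5 higher. The lysozyme lys-7 held 39, 15, 56.1 and 14.1 CPM at day 12, against 485, 550, 346 and 349 CPM at day 4. Its change of -3.84 ± 0.44 stood beside a rise of 1.11 ± 0.20 in N2, where the 3 trials gave 1.39, 1.72 and 0.22. The difference of the age effects was -5.02 ± 0.48 (edgeR adjusted p = 1.36e-07). ctl-2, the peroxisomal catalase, held 23, 15, 21.4 and 19.1 CPM at day 12, against 46.7, 51.7, 47.1 and 50.5 CPM at day 4. It fell by 1.33 ± 0.24 in PX991, while the N2 change was 1.26 ± 0.13. dod-3 likewise fell by 2.42 ± 0.29 in PX991 beside a change of 0.53 ± 0.22 in N2. The Δ9 desaturase fat-5 fell by 1.41 ± 0.25, beside 0.34 ± 0.15 in N2, and icl-1, the enzyme of the glyoxylate shunt, changed by -1.5 ± 0.23, beside 0.06 ± 0.13 in N2. Another Δ9 desaturase, fat-7, fell in both, by 4.50 ± 0.52 in PX991, and its difference of 1.98 ± 0.82 from N2 missed the threshold. Among the other lower members were ttr-44 (-5.69 ± 0.40), lys-8 (-5.12 ± 0.43), asm-2 (-4.44 ± 0.42) and daao-1 (-3.42 ± 0.60). The small heat shock gene sip-1 changed by -1.09 ± 0.12.

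The class I targets that rose included a metallothionein and a noncoding RNA. mtl-1 held 75, 42.7, 39.2 and 45.7 CPM at day 12, against 4.67, 3.75, 6.55 and 9.49 CPM at day 4, a change of 2.99 ± 0.33. N2 rose by 0.82 ± 0.17, so that the difference was 2.11 ± 0.50 (edgeR adjusted p = 0.00515). The other metallothionein, mtl-2, did not pass, with 92.1, 62.3, 62.3 and 40.7 CPM at day 12, against 68.6, 77.9, 54.4 and 54.9 CPM at day 4. tts-1, a noncoding RNA found on ribosomes (chromosome X, 1504131 to 1504841), held 3955, 2494, 2979 and 2800 CPM at day 12, against 524, 699, 737 and 675 CPM at day 4. Its change was 2.21 ± 0.20, and the difference from N2 in the joint fit was 0.03 ± 0.29. hsp-16.2 (1.96 ± 0.51), nnt-1 (1.59 ± 0.58) and nhr-62 (1.16 ± 0.41) also rose, while hsp-16.41 at 1.67 ± 0.77, dod-6 at -0.63 ± 0.31 and cpi-2 at -0.02 ± 0.11 missed the threshold. hsp-16.41 passed without day 4 replicate 3 (3.14) or day 12 replicate 1 (2.13), and dod-6 without day 12 replicate 1 (-1.03), and both passed with limma-voom and without a filter on low counts. The calls of nnt-1 and nhr-62 were lost without day 4 replicate 1 or 2, or without day 12 replicate 1 or 4, and that of nnt-1 also without day 4 replicate 3. Their estimates then ranged between 1.24 and 1.74 for nnt-1 and between 0.93 and 1.08 for nhr-62. Over the class I targets in the joint fit, 11 of 23 differed lower from N2 and 1 higher. Among all genes 9.69% differed lower and 5.37% higher. The class I medians were -1.13 in PX991 and 0.53 in N2. Against EU1, 1 of 22 differed lower and 2 higher, where 3.63% and 3.57% of all genes did. In that fit 9 had an unadjusted p under 0.05, with medians of -1.204 in PX991 and -0.511 in EU1.

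**Figure D3:**
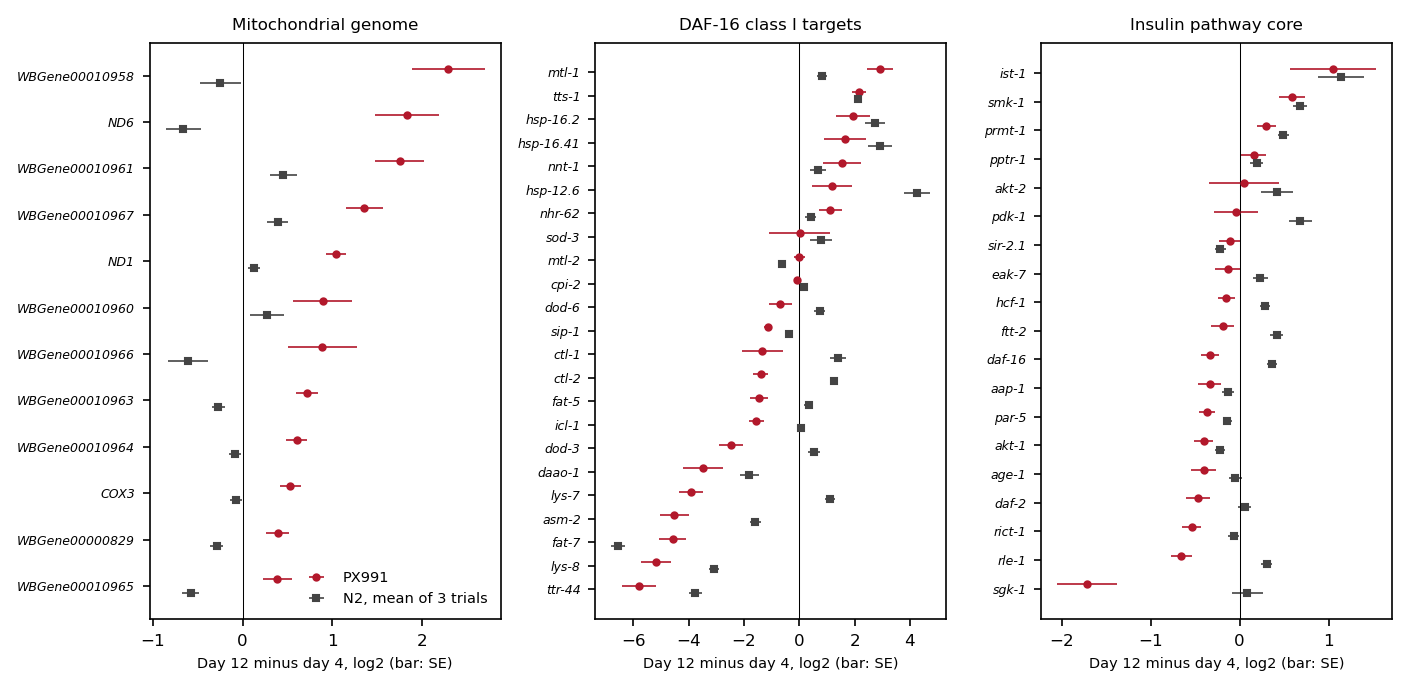
Age effects (day 12 minus day 4, log2, with SE bars) of PX991 (red circles) and of N2 as the mean of 3 trials (grey squares) from 1 joint fit, for 3 gene lists, with 1 insulin pathway gene not drawn. PX991 lies right of N2 for the protein genes of mitochondrial DNA and left of it for many class I targets (lys-7, ctl-2, dod-3) and for insulin pathway genes such as sgk-1 and rle-1.

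Genes of the insulin pathway itself mostly missed the threshold or fell. Of 20 core genes, 7 fell and 2 rose, and not all of them are named here. sgk-1, a kinase below the receptor, held 14.2, 5, 10.7 and 5.82 CPM at day 12, against 28, 37.1, 21.7 and 27.1 CPM at day 4, a change of -1.66 ± 0.28. rle-1, an E3 ubiquitin ligase that acts on DAF-16 protein, changed by -0.61 ± 0.14. The receptor daf-2 changed by -0.41 ± 0.13, rict-1 by -0.49 ± 0.15, akt-1 by -0.36 ± 0.14 and the 14-3-3 gene par-5 by -0.32 ± 0.11. smk-1, a cofactor of DAF-16, rose by 0.64 ± 0.20 and prmt-1 by 0.35 ± 0.12. Several of these small changes, though not those of rict-1, rle-1 and sgk-1, lost their call when a single library was left out. With thinned counts rict-1 was at -0.26 and lost its call. akt-1 lost its call without any one of the day 4 libraries or without day 12 replicate 1 or 4 (estimates of -0.39 to -0.30). prmt-1 lost it without any one library except day 12 replicate 1, par-5 without any one except day 4 replicates 2 and 4 and day 12 replicate 2. smk-1 lost it without day 4 replicate 2 or day 12 replicate 1 or 4 (0.38 to 0.57) and in the fit of only the 8 DMSO libraries (0.66), and daf-2 without day 4 replicate 4 or day 12 replicate 2 (-0.37 in both). In the comparison with N2, 8 of the 20 were lower in PX991 and 0 higher, where 9.69% and 5.37% of all genes were. The difference was -0.96 ± 0.14 for rle-1, -1.80 ± 0.38 for sgk-1 and -0.69 ± 0.11 for daf-16, whose N2 change was 0.36 ± 0.05. With N2 trial 3 alone the sgk-1 difference was -0.84 and lost its call. That of daf-2 (-0.52) lost its call without PX991 day 4 replicate 4 or day 12 replicate 2 (-0.46 in both). Among the 39 insulin-like ligands 7 passed the filter on low counts, and 5 of these rose, where 18.1% of all genes did. The median of the 7 was 1.73 in DMSO and 0.50 on SFN. Members with few reads at day 4 can pass the filter only through libraries where they are high, so this share does not describe the family. ins-20 held 14.2, 7.69, 11.6 and 12.5 CPM at day 12 and 0 reads at day 4, a rise by at least 5.41. ins-6, an agonist of the receptor, changed by 2.17 ± 0.63 at 39 reads against 14, and ins-19 by 1.73 ± 0.46.

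Many of the largest gains were in a family tied to infection inside cells. The pals genes form a large expanded family, many members of which are induced by microsporidia and by the Orsay virus. Of 38 members 18 passed the filter on low counts. Of these 14 rose and 2 fell, against 18.1% higher among all genes tested, and the median was 3.81. Members near 0 reads at day 4, such as pals-14 and pals-39, can pass that filter only through libraries where they are high. The share and the median therefore do not describe the family as a whole. pals-4 held 61.6, 57.7, 41.8 and 54 CPM at day 12, against 1.04, 2.25, 1.23 and 1.16 CPM at day 4, a change of 5.21 ± 0.34. pals-14 held 27.2, 23.5, 29.4 and 19.9 CPM at day 12, against 1.04, 0, 0.409 and 0.926 CPM at day 4. pals-39 held 54, 16.53, 16 and 19.9 CPM at day 12, against 0, 0.375, 0.819 and 0.694 CPM at day 4, with replicate 1 of day 12 far above the rest. pals-37 (5.40), pals-5 (5.3), pals-9 (5.25), pals-3 (4.83) and pals-6 (4.81) also rose. Regulators of the response had smaller values. pals-22, a repressor of it, was at 0.53 and missed the threshold, and pals-25, its antagonist, rose by 1.42. pals-23 and pals-24 fell, by 1.30 and 0.98. Reads of near-identical members may be shared. Against N2 edgeR called 0 of 26 pals genes, with 4 at an unadjusted p under 0.05, DESeq2 called 2 and limma-voom 1, all higher, with medians of 3.34 in PX991 and 3.56 in N2. Against EU1, 5 of 23 had a higher age effect in PX991 past the threshold, where the medians were 3.52 in PX991 and 2.05 in EU1. For pals-6 that difference was 3.10 ± 0.67.

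Other transcripts rose by similar amounts. F42C5.3 on chromosome IV, which has no described role in the annotation used, held 77.9, 60.7, 67.7 and 58.2 CPM at day 12, against 1.04, 0.375, 2.05 and 1.39 CPM at day 4, a change of 5.69 ± 0.45. It rose less in EU1, by 2.38 ± 0.34, with a difference of 3.29 ± 0.64. Y41C4A.32 (5.15 ± 0.93), C54F6.18 (5.15 ± 0.44), Y46H3A.5 (4.69 ± 0.65), C18D11.6 (4.35 ± 0.46) and B0507.8 (4.31 ± 0.60) also lay above day 4 in every day 12 library. So did ptr-22, a patched-related membrane protein gene, at 4.31 ± 0.46, and fbxa-24, an F-box gene whose protein family recruits substrates to ubiquitin ligases, at 4.31 ± 0.26. Of the 131 tested F-box and BATH genes, 28 rose and 20 fell, which is 21.4% and 15.3%, near the shares of all genes.

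Tested neuropeptide genes mostly rose or missed the threshold. Of 102 neuropeptide genes 57 passed the filter on low counts. Of these 27 rose and 1 fell, where 18.1% and 18% of all genes tested did, and the median was 0.99. Members with few reads at day 4 can pass that filter only through libraries where they are high, so this share does not describe the family. nlp-34, an antimicrobial peptide of the epidermis, held 43.6, 13.5, 24 and 22.4 CPM at day 12, against 5.71, 5.99, 7.78 and 6.48 CPM at day 4. nlp-31, of the same kind, changed by 1.25 ± 0.24, nlp-80 by 1.54 ± 0.32 and nlp-48 by 3.65 ± 0.74. Of 30 nerve genes 18 were tested, and of these 7 rose and 1 fell, which is 38.9% and 5.56%. egl-3, which cuts neuropeptide precursors, changed by 1.09 ± 0.27, ida-1 of dense core vesicles by 1.08 ± 0.28 and the synaptotagmin snt-1 by 1.67 ± 0.44. Without day 12 replicate 1, ida-1 was at 0.68 and lost its call. The summed nerve markers were 814 to 1019 CPM at day 12 and 816 to 873 CPM at day 4, and these ranges overlap. In the joint fit 2 of 69 neuropeptide genes differed from N2, both lower, where 9.69% of all genes were lower and 5.37% higher.

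**Figure D4:**
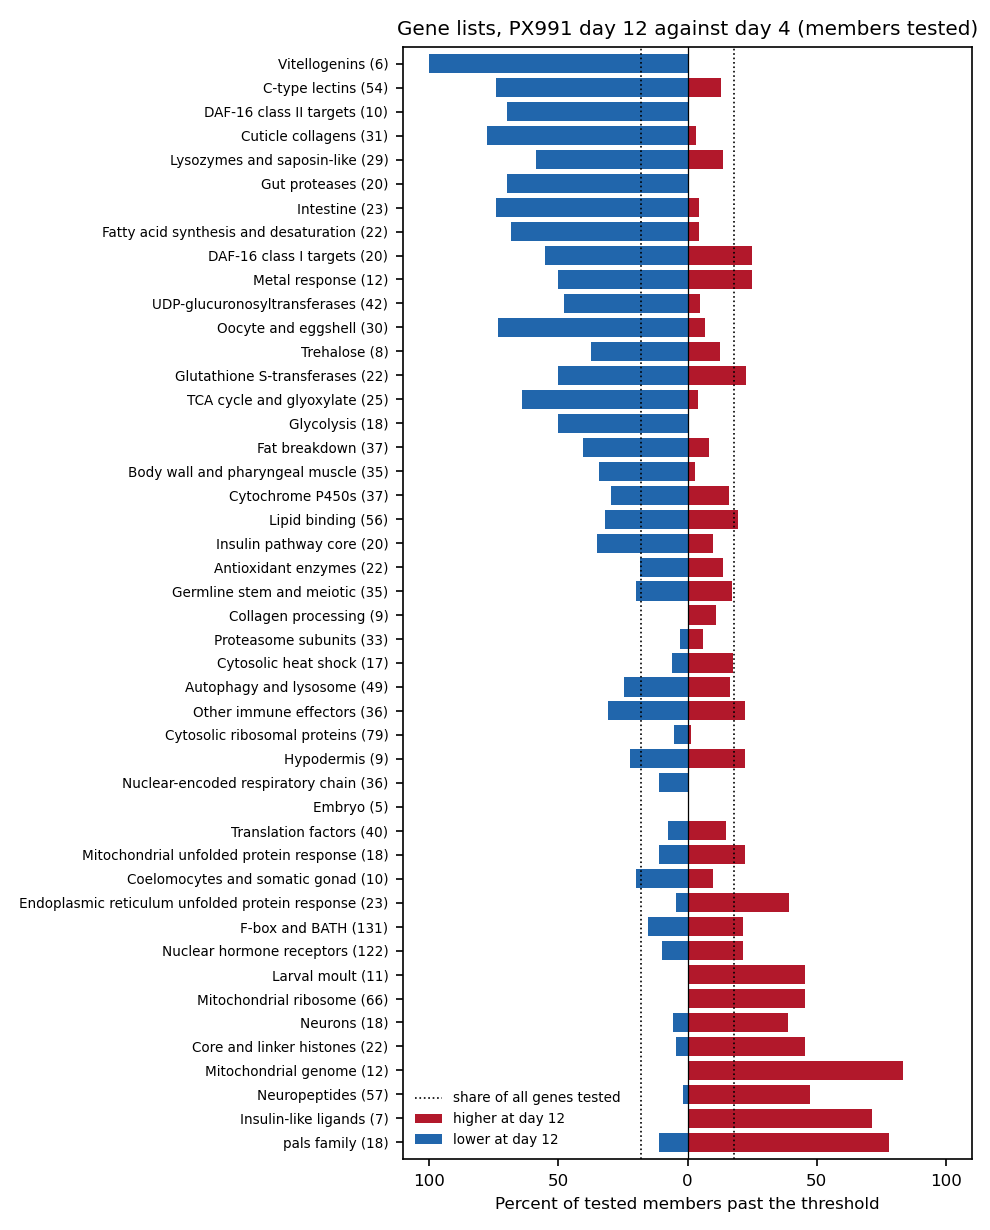
For each gene list with at least 5 tested members (number in brackets), the share that rose (red, right) or fell (blue, left) at day 12, in percent, ordered by median change. Dotted lines mark the shares of all genes tested, 18.1% and 18%. Vitellogenins, lectins, collagens and gut genes lie far to the left, and the pals, mitochondrial genome and insulin-like lists far to the right.

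Transcripts of mitochondrial DNA were higher at day 12. Of its 12 protein genes, which encode core subunits of the respiratory chain, 10 rose and 0 fell, and in all 12 the day 12 libraries lay above the day 4 libraries. ND6 held 202, 150, 157 and 172 CPM at day 12, against 53.5, 41.6, 43.8 and 46.8 CPM at day 4, a change of 1.88 ± 0.15 (edgeR adjusted p = 1.96e-09). ND1 held 2216, 1571, 1840 and 1726 CPM at day 12, against 876, 789, 896 and 892 CPM at day 4. COX3 rose less, by 0.58 ± 0.12. In the joint fit the list median was 0.89 in PX991 and -0.17 in N2, and 11 of 12 genes differed from N2, all higher. N2 trials were not alike, since ND6 changed by -2.37, 0.33 and 0.07 in them. The ND1 difference of 0.92 ± 0.13 was 0.33 and lost its call with N2 trial 3 alone. With N2 trial 2 alone the differences of WBGene00010967 (0.96) and WBGene00010961 (1.30) were 0.49 and -0.28, and both lost their calls. Against EU1, 9 of 12 differed higher, and for ND1 that difference was 1.52 ± 0.35. A ribosomal RNA gene of mitochondrial DNA, WBGene00014472, held 878, 660, 743 and 862 CPM at day 12, against 143, 131, 126 and 165 CPM at day 4. Its N2 change was -0.22 ± 0.11, with -0.25, -0.21 and -0.19 in the 3 trials, and the difference was 2.63 ± 0.22. In PX991 on SFN the median of the 12 protein genes was 0.12, beside 0.94 in DMSO, and 0 of the 12 differences between them passed. ND1 was at 0.17 ± 0.18 on SFN and missed the threshold, while ND6 rose by 1.13 ± 0.15 there. Capture of mitochondrial RNA by an mRNA kit can differ between libraries, and its part in these values was not tested.

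Nuclear genes for mitochondria did not move as one. Of 66 genes for the mitochondrial ribosome 30 rose and 0 fell, with a median of 0.35. mrpl-49 held 64.1, 55.7, 57.9 and 57.3 CPM at day 12, against 34.8, 34.8, 30.3 and 24.5 CPM at day 4. Of these genes 26 differed higher from N2, with joint medians of 0.31 in PX991 and -0.21 in N2. Of 36 nuclear genes for respiratory chain subunits 4 fell and 0 rose. In the tricarboxylic acid and glyoxylate list 16 of 25 fell and 1 rose. mdh-2, the mitochondrial malate dehydrogenase, held 139, 165, 180 and 162 CPM at day 12, against 343, 336, 378 and 383 CPM at day 4. In that list 13 genes differed lower from N2, with joint medians of -0.46 in PX991 and 0.06 in N2. Chaperones of the mitochondrial stress response went both ways, with hsp-60 at -0.82 ± 0.14 and the import subunit timm-23 at 0.91 ± 0.14.

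Fat and sugar metabolism fell at many steps. Of 22 tested genes for fatty acid synthesis and desaturation 15 fell and 1 rose. elo-6, an elongase for branched-chain fatty acids, held 16.8, 13.1, 7.12 and 12.5 CPM at day 12, against 205, 169, 134 and 194 CPM at day 4. Its partner elo-5 changed by -3.51 ± 0.30, the acyl-CoA synthetase acs-1 by -2.34 ± 0.17 and the Δ6 desaturase fat-3 by -2.14 ± 0.19. elo-6 fell in N2 too, with a difference of -0.02 ± 0.30. Among genes for fat breakdown 15 of 37 fell and 3 rose, among them acox-1.5 (-4.07 ± 0.30), hacd-1 (-3.60 ± 0.27) and the lysosomal lipase lipl-5 (-2.84 ± 0.25). Of 18 glycolysis genes 9 fell and 0 rose, by amounts such as -0.66 ± 0.11 for gpd-1 and -0.65 ± 0.13 for enol-1. Trehalases tre-2 and tre-3 each changed by -1.81, while tre-5 rose by 2.71 ± 0.57.

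Among detoxification enzymes more members fell than rose. Of 42 tested UDP-glucuronosyltransferases, which attach sugars to foreign compounds, 20 fell and 2 rose. ugt-44 held 1.26, 0.769, 2.67 and 2.49 CPM at day 12, against 94, 97, 105 and 101 CPM at day 4. Glutathione S-transferases fell in 11 of 22 and rose in 5, and 6 of 27 in the joint fit differed higher from N2, where 5.37% of all genes did. gst-10 held 4.19, 1.92, 0.89 and 0 CPM at day 12, against 46.2, 52.1, 26.2 and 33.6 CPM at day 4. Cytochrome P450 genes fell in 11 of 37 and rose in 6. cyp-35A2 changed by -4.90 ± 0.26, while cyp-33C8 held 74.6, 56.1, 55.2 and 66.5 CPM at day 12, against 10.9, 8.99, 11.5 and 13.2 CPM at day 4. Antioxidant enzymes were near the background, with 3 of 22 higher and 4 lower. sod-4, the extracellular superoxide dismutase, rose by 1.42 ± 0.22 and the thioredoxin trx-3 by 2.75 ± 0.45.

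Lists of protein folding and turnover differed among themselves. Of 17 heat shock genes 3 rose and 1 fell, which is 17.6% and 5.88%, against 18.1% and 18% of all genes. hsp-70 held 4.19, 3.08, 14.2 and 7.48 CPM at day 12, against 0, 0.749, 0.819 and 0.231 CPM at day 4. In the unfolded protein response of the endoplasmic reticulum 9 of 23 rose and 1 fell, with xbp-1, its transcription factor, at 0.58 ± 0.12. sqst-1, the p62 receptor of autophagy, held 263, 176, 208 and 266 CPM at day 12, against 68, 97.4, 81 and 86.8 CPM at day 4. Of 33 proteasome subunits 2 rose and 1 fell, all by less than 1. Of 79 tested genes in the list of cytosolic ribosomal proteins 1 rose and 4 fell. The listed gene that rose, rpl-24.2, changed by 1.1 ± 0.11, and whether its product is part of mature ribosomes was not examined. Under limma-voom with sample weights 18 ribosomal protein genes were lower.

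Most tested cuticle collagens fell, while most muscle genes missed the threshold. Of 176 cuticle collagens 31 passed the filter on low counts. Of these 24 fell and 1 rose, where 18% and 18.1% of all genes tested did. Members with few reads at day 12 can pass that filter only through libraries where they are high. The share therefore does not describe the family as a whole. col-80 held 0.419, 1.15, 1.78 and 0.831 CPM at day 12, against 27.5, 40.8, 36.8 and 41.4 CPM at day 4. In the difference from N2, 3 of 45 collagens were lower and 2 higher, not above the 9.69% and 5.37% of all genes. Of 35 muscle genes 12 fell and 1 rose. unc-27, a troponin I, held 10.5, 8.46, 16.9 and 8.31 CPM at day 12, against 140, 184, 141 and 169 CPM at day 4. The troponin T gene tnt-2 changed by -3.92 ± 0.35 and the paramyosin gene unc-15 by -1.97 ± 0.21, while 22 of the 35 missed the threshold. Among 11 tested genes of the larval moult 5 rose and 0 fell, including the protease nas-37 at 3.18 ± 0.39 and the fibrillin-like fbn-1 at 2.70 ± 0.39.

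Most oocyte genes fell, and their median change was smaller than that of the yolk genes. Of 30 oocyte and eggshell genes 22 fell and 2 rose, with a median of -0.64. cpg-2, a chondroitin proteoglycan of the eggshell, held 1345, 1550, 1495 and 1436 CPM at day 12, against 3131, 3300, 3109 and 3133 CPM at day 4. The yolk receptor gene rme-2 held 497, 564, 550 and 469 CPM at day 12, against 1147, 1055, 1106 and 957 CPM at day 4. The age effect of 12 of 30 was lower than in N2, where 9.69% of all genes were. For rme-2 the difference was -0.44 ± 0.14, and for cpg-2 it was -0.71 ± 0.12. Germline stem cell and meiotic genes were near the background, with 6 of 35 higher and 7 lower, and the synaptonemal complex gene syp-1 rose by 0.88 ± 0.14. Histone genes rose in 10 of 22 tested members and fell in 1. The linker histones hil-3 (2.50 ± 0.29) and his-24 (2.14 ± 0.32) led them. hil-3 held 69.5, 71.5, 118 and 129 CPM at day 12, against 17.7, 9.37, 18 and 21.3 CPM at day 4.

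Position and gene length also sorted the changes. On the X chromosome 24.2% of 1345 tested genes fell and 17.5% rose, with a median of -0.11, while medians of the 5 autosomes lay between -0.01 and 0.04. Among the 10% of genes with the shortest exonic length, 24.8% rose and 11.4% fell, with a median of 0.20. The medians in these genes were -0.11 in N2 and -0.12 in EU1. In the longest 10% the medians were -0.04 in PX991, 0.20 in N2 and 0.17 in EU1. EU1 was counted in the same table as PX991, and the cause of the trend with length was not tested. Since N2 and PX991 were counted in separate tables and collected apart, strain, trial and library making cannot be told apart.

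Set gene by gene against N2, most called genes of PX991 had the same sign, with many differences in size. Over 12131 genes the Spearman correlation of both age effects was 0.65, given as a description across genes. Of 3977 genes called in PX991 in the joint fit, 86.4% had the same sign in N2. The difference of the age effects passed for 1828 genes (15.1%), 652 higher and 1176 lower in PX991. It passed for 1213 genes with the N2 trial without a number alone and for 697 with thinned counts. scl-2, a secreted cysteine-rich protein gene, had the smallest adjusted p. PX991 held 22.2, 21.5, 21.4 and 23.3 CPM at day 12, against 197, 206, 170 and 162 CPM at day 4. N2 rose by 1.51 ± 0.14 with trials at 2.42, 1.79 and 0.33, and the difference was -4.62 ± 0.32. thn-2, a thaumatin family gene, held 0.838, 1.15, 1.78 and 4.15 CPM at day 12, against 103, 117, 81.5 and 113 CPM at day 4. It rose in N2 by 1.65 ± 0.20, with trials at 1.51, 2.67 and 0.78. C30G12.2 fell by 3.62 ± 0.23 in PX991 and its N2 trials gave 2.17, 0.18 and -0.51. ads-1, a gene of ether lipid synthesis, differed by -2.12 ± 0.19, and the AMP deaminase gene ampd-1 by -1.37 ± 0.14. C18H9.6 differed by -1.89 ± 0.21 and C13F10.7 by 1.19 ± 0.13. By age alone, in the fit of all PX991 libraries, both missed the threshold, at -0.78 ± 0.32 for C18H9.6 and 0.56 ± 0.39 for C13F10.7. Both passed in the fit of only the 8 DMSO libraries (edgeR adjusted p = 7.72e-05 for C18H9.6 and 0.00239 for C13F10.7).

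Against EU1 the same PX991 libraries gave 787 genes past the threshold (7.2%), 390 higher and 397 lower. The count was 515, 465 and 487 without day 4 replicate 2, 3 and 4 of PX991 and 491 without its day 12 replicate 1. C13F10.7 held 743, 524, 556 and 447 CPM at day 12, against 414, 356, 374 and 394 CPM at day 4, and its EU1 change was -0.86 ± 0.10. T24A6.7 rose by 2.59 ± 0.39 in PX991 and fell by 1.63 ± 0.25 in EU1, a difference of 4.18 ± 0.47. asns-2, an asparagine synthetase, fell by 2.73 ± 0.22 in PX991, and EU1 stood at 0.20 ± 0.25. gst-24 held 144, 71.1, 102 and 88.9 CPM at day 12, against 102, 121, 89.6 and 85 CPM at day 4, while it fell by 1.92 ± 0.16 in EU1. perm-2, a gene of the eggshell permeability barrier, differed by 1.23 ± 0.17, F02E9.1 by 1.2 ± 0.17, rbmx-2 by 1.06 ± 0.15 and R11F4.1 by -1.91 ± 0.28. Without the terms for EU1 collections perm-2 was at 1.26 and lost its call.

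In PX991 on SFN 30.2% of genes passed by age, and few differences between the age effects on SFN and in DMSO passed the threshold. The change differed past the threshold for 60 of 10073 genes (0.596%), 12 higher and 48 lower in DMSO. At an unadjusted p under 0.05 edgeR gave 1004 genes, so a difference that missed the threshold is not shown to be absent. The vitellogenin median, for instance, was -5.69 in DMSO and -3.63 on SFN, with 3 of 6 called as differing. One day 12 SFN library, replicate 3, was shallow, and without it 70 genes passed, 24 higher and 46 lower. Without day 12 SFN replicate 4 the count was 98. Of the 3637 genes called in DMSO, 96% had the same sign on SFN. lys-7 was at -3.84 ± 0.44 in DMSO and 0.64 ± 0.37 on SFN, and the difference was -4.48 ± 0.57. The gut protease cpr-1 held 184, 77.7, 183 and 87.2 CPM at day 12 of DMSO, against 454, 497, 478 and 476 CPM at day 4. It fell by 1.84 ± 0.28 in DMSO and rose by 1.2 ± 0.27 on SFN. For vit-3 the change was -9.32 ± 0.38 in DMSO and -5.06 ± 0.28 on SFN, and vit-1 and vit-4 differed too, by -2.51 ± 0.47 and -4.51 ± 0.67. thn-2 (-4.05 ± 0.43), F28H7.3 (-2.85 ± 0.36), K12H4.7 (-2.82 ± 0.44), lys-1 (-2.81 ± 0.39) and C30G12.2 (-2.14 ± 0.31) complete the 8 genes with the smallest adjusted p. With thinned counts K12H4.7 was at -1.98 and lost its call. The age effect was lower in DMSO than on SFN for 5 of 20 gut proteases and 1 of 23 intestinal markers, where 0.477% of all genes were.

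**Figure D5:**
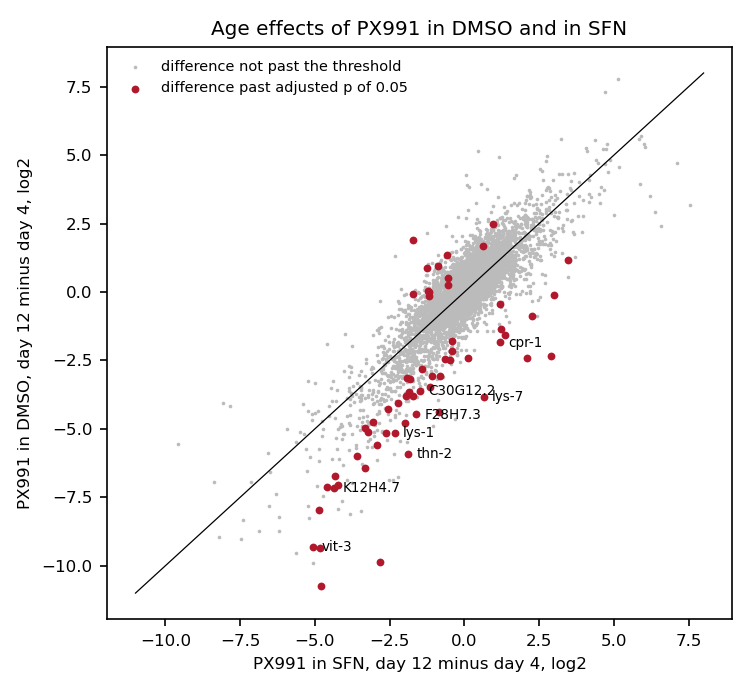
Day 12 minus day 4 on the log2 scale for 10073 genes of PX991, in DMSO (vertical) and on SFN (horizontal), with the line of equal change. Red points are the 60 genes whose change differed, 48 of which lie below the line, with the 8 of smallest adjusted p named.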

How the data were processed

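RNA of whole worms was made into libraries with an mRNA kit, per the labels' protocols, and reads were assigned to genes of WBcel235 with featureCounts (Subread 2.0.2), per the submitters' processing notes. The strand setting used for the mutant table is not given in the sources used here, so overlapping and antisense genes are uncertain. The authors deposited unnormalized counts for 46926 genes. Members, gene lists and comparisons were chosen with earlier results of these data known.

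Counts were fitted with edgeR 4.0.16 (R 4.3.3), using TMM factors, filterByExpr and robust quasi-likelihood tests with Benjamini-Hochberg adjustment over all genes tested. The age comparison used all 16 PX991 libraries. Differences of age effects were tested as interactions, against N2 (mean of 3 trials), EU1 (with terms for its collections) and PX991 on SFN. Estimates for a gene differ slightly between these fits. Lists were described by counts and medians, without a test. Library measures were compared by exact permutation. Alternatives were DESeq2 1.42.0, limma 3.58.1 (voom), other scaling and filters, thinned counts, a replicate block and leaving out libraries. Scripts were tested on simulated data.

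Named genes were the 12 largest rises and 12 largest falls with at least 20 CPM and no overlap of the ages (at most 3 per list), 10 abundant changed genes, up to 4 members per list by adjusted p, all tested vitellogenins, insulin pathway genes and DAF-16 targets, and 8 genes per difference. The pals genes named without an SE and COX3 were added after their values were seen. Not every insulin pathway gene is named, and 1 of those past the threshold is counted in its list and not reported here. Promoter motifs, sequences and GC content were not analysed here. Intervals and floors cover counting error only.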

Additional observations from a re-analysis of the deposited data

Results flagged for a closer look

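Among 292 groups of 4 libraries checked, 23 held a library far from the other 3. A chance rate of about 1 in 20 holds for normally distributed values only. A group with reads in a single library is always flagged, as for dod-24, C32H11.4, Y16B4A.2 and dod-17 at day 12. The 23 can therefore not be set against that rate. At day 12, replicate 1 was high for pals-39 (54 CPM), C18D11.6 (51.9 CPM), snt-1 (20.5 CPM) and icl-1 (42.7 CPM) and low for skn-1 (157 CPM). Replicate 2 of day 12 was high for enol-1 (405 CPM), and it held the single read of C32H11.4 and of Y16B4A.2 (0.384 CPM each). Replicate 3 of day 12 was high for daf-16 (157 CPM) and held the single read of dod-24 (0.89 CPM), and replicate 4 was high for dod-17 (1.66 CPM) and dod-19 (175 CPM). At day 4, replicate 2 was high for pals-4 (2.25 CPM), cpg-2 (3300 CPM) and tre-2 (131 CPM). Replicate 3 of day 4 was low for acdh-1 (354 CPM), ttr-44 (25.8 CPM), hacd-1 (75.7 CPM) and akt-1 (286 CPM). Replicate 4 of day 4 was high for Y16B4A.2 (90.7 CPM) and prmt-1 (505 CPM), and it stood apart in ribosomal RNA (15.4% of counts) and in the share of its 10 most abundant genes (22.3%).

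Age effects that differed from N2 in the interaction test are given here as log2 differences, PX991 minus N2. All differences below share the 8 PX991 DMSO libraries, so they are not independent of each other. Lower in PX991 were vit-2 (-0.78), vit-4 (-1.60), vit-5 (-2.08), cpl-1 (-1.14), lys-7 (-5.02), ctl-2 (-2.64), dod-3 (-3.0), fat-5 (-1.80) and icl-1 (-1.61). So were rle-1 (-0.96), sgk-1 (-1.80), daf-16 (-0.69), rme-2 (-0.44), cpg-2 (-0.71), scl-2 (-4.62), thn-2 (-7.64), C30G12.2 (-4.29), ads-1 (-2.12), ampd-1 (-1.37) and C18H9.6 (-1.89). Higher in PX991 were mtl-1 (2.11), ND1 (0.92), ND6 (2.49), WBGene00014472 (2.63) and C13F10.7 (1.19).

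Against EU1 PX991 was higher for pals-6 (3.10), F42C5.3 (3.29), ND1 (1.52), C13F10.7 (1.38), T24A6.7 (4.18), gst-24 (1.92), perm-2 (1.23), F02E9.1 (1.2) and rbmx-2 (1.06). It was lower for asns-2 (-2.94) and R11F4.1 (-1.91). The DMSO age effect minus that on SFN was negative for lys-7 (-4.48), vit-3 (-4.26), vit-1 (-2.51), vit-4 (-4.51), cpr-1 (-3.05), thn-2 (-4.05), F28H7.3 (-2.85), K12H4.7 (-2.82), lys-1 (-2.81) and C30G12.2 (-2.14).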

How the results depend on the processing

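The age comparison gave 3637 calls and between 3298 and 4505 under the other scalings, tools, filters and sets of libraries tried (4505 without the shallowest SFN library, chosen after seeing the data), 1863 with thinned counts, and 3102 to 3416 when a library was left out. Of 241 named genes 219 were called, 27 of these lost the call under at least 1 alternative and 0 changed sign, while daf-16, skn-1, age-1, hsp-16.41, dod-6, dod-19, C18H9.6 and C13F10.7 missed the threshold and passed under at least 1. Replicate numbers did not pair the samples, since deviations of same-numbered libraries correlated by -0.04 to 0.06. A replicate block gave 3635 calls by age, 83 for the difference from SFN, 1407 for that from N2 and 424 for that from EU1. The SFN difference of 60 genes became 155 with DESeq2, 112 with limma-voom, 203 without a filter and 31 with thinned counts, and 46 to 98 when a library was left out. The N2 difference of 1828 genes became 697 with thinned counts and 1213 with the N2 trial without a number alone, and 1460 to 2559 when a library was left out. The sign turned for WBGene00010961 (1.30, and -0.28 with N2 trial 2 alone) and for vit-2 (-0.78, and 0.085 with N2 trial 3 alone), and the cause was not tested. The EU1 difference of 787 genes became 1301 with limma-voom and 480 with thinned counts, and 465 to 1122 when a library was left out. The surplus of 1551 genes seen at day 12 ranged between 1389 and 1858 when a library was left out. Its exact permutation p was 0.0571 without any one day 4 library and 0.0286 without any one day 12 library. Day 12 replicates 3 and 4 held the fewest counts, so low genes were measured with more error there. GC content and promoter motifs were not run.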
